A study of Mus musculus with 10 samples.

Results

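Amino acid catabolism enzymes of the liver were examined as a list of 46 genes, given by name, covering the breakdown of single amino acids and the transaminases that join these routes. All 46 genes were found by symbol among the 41388 Ensembl genes listed in the deposited tables, and all 46 were among the 13444 genes that passed the filter on low values. The measurements are liver RNA-seq libraries of 12-week-old C57B/6J mice. WT Refed livers (n = 2) came from mice fasted for 22 h and refed for 2 h, whereas WT Fasting livers (n = 3) and NAMPT LKO Fasting livers (n = 5) came from mice fasted for 24 h, with all fasting on aspen bedding. WT mice are littermates that carry NAMPT fl/fl alleles without Cre, and NAMPT LKO mice lose Nampt, the enzyme of NAD salvage, in hepatocytes through Albumin-cre. The study describes this excision as specific to hepatocytes.

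The liver takes up most amino acids from portal blood and strips their nitrogen by transamination or deamination, passing it to the urea cycle. The remaining carbon enters gluconeogenesis, ketone body formation or the tricarboxylic acid cycle, and several of the dehydrogenase steps reduce NAD. During fasting the liver depends on amino acids released from muscle as a source of glucose, and refeeding with carbohydrate reverses this flow.

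Total counts ranged from 30603080 to 43434139 per library. Values are given as CPM, in which edgeR's TMM scaling sets the counts of each library to a common total, and differences as log2 fold changes with 95% intervals from edgeR's quasi-likelihood test over all 13444 genes. A gene was called where its adjusted p (Benjamini-Hochberg) did not exceed 0.05. Levels of different genes were compared only as deposited RPKM, which divides by exonic length. Nampt was 12.1, 14.0, 11.8, 12.5 and 15.3 CPM in the NAMPT LKO Fasting livers, below the 63.0, 73.4 and 141 CPM of the WT Fasting livers and the 78.0 and 67.8 CPM of the WT Refed livers. NAMPT LKO Fasting library 5 stood apart, with 21.1% of its counts on mitochondrial genes against 7.42% to 12.9% in the other libraries. In bulk liver, fewer hepatocytes and less RNA per hepatocyte cannot be told apart. Sums of marker lists, here and below, are the exception, as counts over the library's total without TMM scaling. The summed CPM of 8 hepatocyte markers was 83587 to 88982 in WT Refed, 82547 to 105150 in WT Fasting and 73507 to 101950 in NAMPT LKO Fasting livers.

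The 46 genes were expressed far above the typical gene of the same livers. Their median level was 64.4 RPKM, against 3.51 RPKM over all genes tested. Of the 46, 15 lay above 100 RPKM and 6 below 10 RPKM. Cdo1, the dioxygenase that begins cysteine oxidation, and Hpd, the hydroxyphenylpyruvate dioxygenase of tyrosine breakdown, were highest at 1174 ± 165 and 1155 ± 123 RPKM (SD over 10 libraries). Their order differed between groups. Cdo1 and Hpd were 884 ± 1.70 and 1138 ± 19.2 RPKM in WT Refed livers (SD, n = 2). They were 1297 ± 54.6 and 1258 ± 165 RPKM in WT Fasting (SD, n = 3) and 1216 ± 65.7 and 1101 ± 91.3 RPKM in NAMPT LKO Fasting livers (SD, n = 5). Oat, which turns ornithine into an intermediate shared with proline, followed at 420 ± 85.2 RPKM (SD over 10 libraries). The lowest levels were those of Auh at 4.25 ± 0.262 RPKM and Mccc1 at 3.05 ± 0.373 RPKM (SD over 10 libraries), both of the leucine branch. Their exonic lengths, by which RPKM divides, were long at 9580 and 10442 bases, so their place depends on that length. The other leucine genes were higher, with Ivd at 22.3 RPKM and Mccc2, of 2123 exonic bases, at 27.3 RPKM. Bcat2, the mitochondrial branched-chain transaminase known for its scarcity in liver, was at 5.09 RPKM, and Bckdk, the kinase that switches off the branched-chain ketoacid dehydrogenase, was at 4.96 RPKM. By contrast Bckdha, the subunit that this kinase phosphorylates, was at 121 RPKM.

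**Figure D1:**
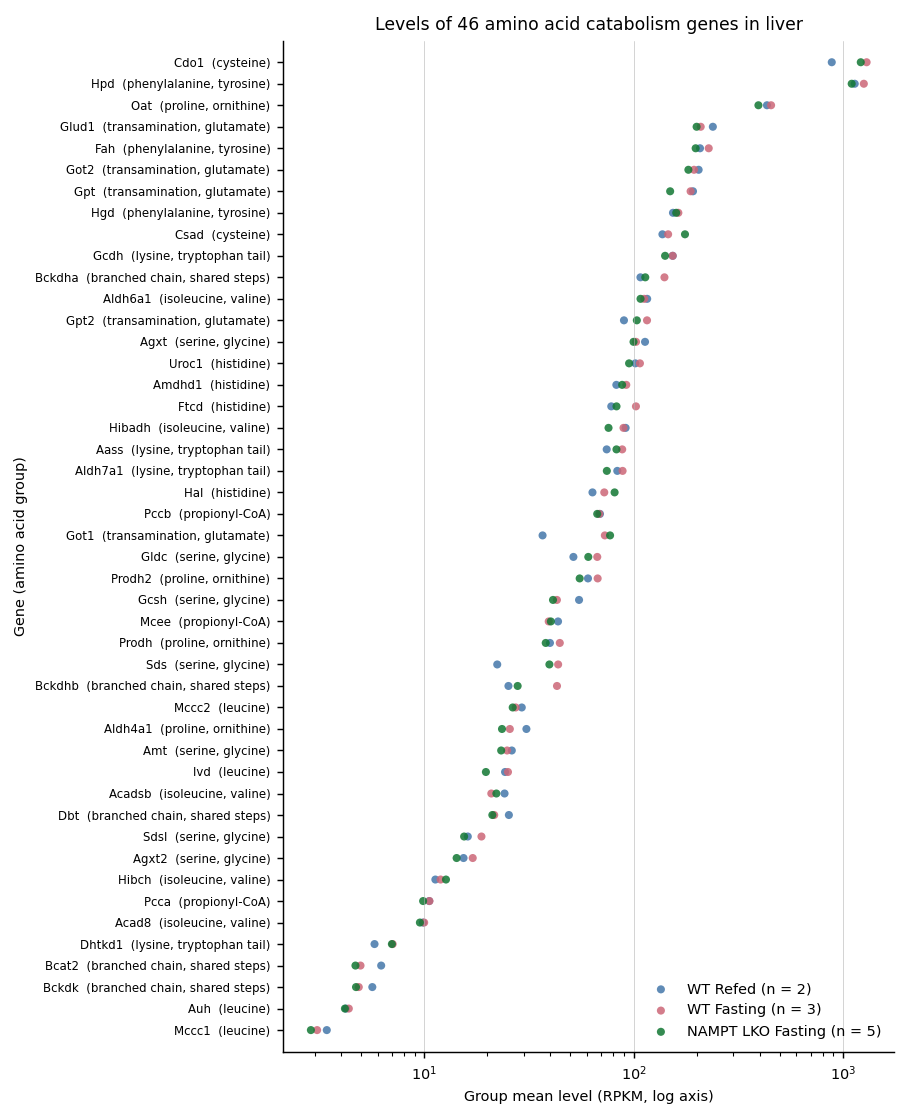
Group mean levels of the 46 genes, ordered by their mean over all libraries, with RPKM on a log axis and a colour for each group. The order runs from Cdo1 and Hpd, with means of 1174 and 1155 RPKM over all libraries, to Mccc1 at 3.05 RPKM, and the refed points of Got1, Sds and Cdo1 lie left of both fasting groups.

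The comparison of WT Fasting with WT Refed livers asked which of these enzymes differed between the end of a fast and early refeeding. A single gene passed the test, Cdo1, whose product commits cysteine to taurine or sulfate. Sds and Got1, which link serine and aspartate to gluconeogenesis, showed about 2-fold higher levels in WT Fasting livers but were not called (adjusted p = 0.0528 and 0.0858 in edgeR's quasi-likelihood test). The 1 call among 46 genes, 2.17% of the list, stands beside a background of 7.04% of all genes tested (946 of 13444). At an unadjusted p at or under 0.05, 9 of the 46 genes passed, or 19.6%, against a background of 22.3%. Of those 9, 8 were higher in WT Fasting livers (Cdo1, Sds, Gpt2, Got1, Bckdhb, Ftcd, Gldc and Bckdha) and Gcsh was lower. The log2 fold change was above 0 for 33 genes, or 71.7%, against 53.6% of all genes, and its median over the list was 0.13 against 0.04 over all genes. The 3 WT Fasting livers lay above both WT Refed livers for 13 genes (28.3%, background 24.5%) and below both for 5 genes (10.9%, background 25.1%). All 7 Kupffer cell markers also had a log2 fold change above 0 here, with a summed CPM of 180 to 209 in WT Refed and 216 to 447 in WT Fasting livers, and their part in these values was not tested.

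Cysteine breakdown held the called gene. Cdo1 was 1309 and 1317 CPM in WT Refed livers, 2034, 2131 and 1859 CPM in WT Fasting livers, and 1769, 1865, 1783, 2061 and 2171 CPM in NAMPT LKO Fasting livers. Every fasting library, of either genotype, lay above both refed libraries. The log2 fold change of WT Fasting against WT Refed was 0.61 (95% interval 0.31 to 0.91, edgeR's quasi-likelihood test, adjusted p = 0.0225). The change kept its direction without each library in turn, from 0.57 to 0.66, while the adjusted p rose to 0.0659 without WT Fasting 1, 0.0780 without WT Fasting 2, 0.176 without WT Refed 1 and 0.202 without WT Refed 2. Csad, which decarboxylates the product of Cdo1 on the way to taurine, was 302 and 302 CPM in WT Refed and 416, 298 and 288 CPM in WT Fasting livers, and these groups overlapped. Csad varied most of the list among NAMPT LKO Fasting livers, at 531, 478, 503, 335 and 169 CPM, with the lowest value in library 5.

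Serine is broken down by dehydration or by transamination with glyoxylate, and glycine by the glycine cleavage system. Sds, the dehydratase that releases pyruvate and ammonia from serine, was 29.0 and 41.0 CPM in WT Refed, 52.8, 81.0 and 80.1 CPM in WT Fasting, and 54.6, 65.2, 94.4, 62.1 and 51.0 CPM in NAMPT LKO Fasting livers. The refed and fasting libraries did not overlap. Against WT Refed, the log2 fold change of WT Fasting livers was 1.03 (95% interval 0.41 to 1.65, edgeR's quasi-likelihood test, adjusted p = 0.0528). Without each library in turn it ran from 0.79 to 1.29, and the adjusted p for Sds from 0.0267 without NAMPT LKO Fasting 5 to 0.351 without WT Refed 1. Its close relative Sdsl was 21.2 and 25.8 CPM in WT Refed and 22.0, 31.0 and 32.4 CPM in WT Fasting livers, which overlapped (log2 fold change 0.28, 95% interval -0.28 to 0.83, and 0.13 without WT Refed 1). The ratio of Sds to Sdsl in RPKM was 1.27 and 1.48 in WT Refed, 2.23, 2.42 and 2.30 in WT Fasting, and 2.12 to 3.12 in NAMPT LKO Fasting livers, so the ratio did not overlap between refed and fasting libraries. Sds shares 360 exonic bases with Plbd2 on the opposite strand. If strand was not used, reads from these bases would be ambiguous, and only unambiguous reads were counted.

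Within the glycine cleavage system the subunits had log2 fold changes of opposite sign. Gldc, the decarboxylase subunit, was 169 and 208 CPM in WT Refed and 214, 282 and 268 CPM in WT Fasting livers, and the log2 fold change was 0.44 (95% interval 0.01 to 0.87, edgeR's quasi-likelihood test, adjusted p = 0.210), or 0.28 without WT Refed 1. Gcsh, the lipoyl carrier subunit, was 86.1 and 82.3 CPM in WT Refed and 68.0, 69.5 and 68.7 CPM in WT Fasting livers, and the log2 fold change was -0.29 (95% interval -0.57 to -0.02, edgeR's quasi-likelihood test, adjusted p = 0.195). Neither pair of groups overlapped, and neither gene was called. Amt, the aminomethyltransferase, was 39.3 and 47.5 CPM in WT Refed and 38.8, 42.8 and 47.2 CPM in WT Fasting livers, which overlapped. Of the glyoxylate transaminases, Agxt was 145 and 229 CPM in WT Refed livers and between 161 and 191 CPM in WT Fasting livers, and Agxt2 had a log2 fold change of 0.21 (95% interval -0.28 to 0.69), or 0.10 without WT Fasting 2.

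Transaminases move amino nitrogen onto ketoglutarate, and the cytosolic and mitochondrial forms are separate genes. Got1, the cytosolic aspartate aminotransferase of the malate-aspartate shuttle, was 75.9 and 105 CPM in WT Refed, 249, 154 and 156 CPM in WT Fasting, and 172, 174, 242, 140 and 299 CPM in NAMPT LKO Fasting livers. All 8 fasting libraries lay above both refed libraries. The log2 fold change of WT Fasting against WT Refed was 1.04 (95% interval 0.32 to 1.77, edgeR's quasi-likelihood test, adjusted p = 0.0858). Without each library in turn it ran from 0.77 to 1.29, and the adjusted p for Got1 from 0.0283 without NAMPT LKO Fasting 5 to 0.430 without WT Refed 1. Got2, the mitochondrial form, lay between 493 and 524 CPM in all 5 WT libraries. The RPKM ratio of Got1 to Got2 was 0.150 and 0.210 in WT Refed, 0.515, 0.300 and 0.314 in WT Fasting, and 0.284 to 0.674 in NAMPT LKO Fasting livers, again without overlap. For alanine the mitochondrial gene had the larger log2 fold change. Gpt2 was 512 and 473 CPM in WT Refed and 643, 697 and 646 CPM in WT Fasting livers, and the log2 fold change was 0.43 (95% interval 0.16 to 0.69, edgeR's quasi-likelihood test, adjusted p = 0.0610). Gpt, the cytosolic alanine aminotransferase, was 304 and 349 CPM in WT Refed and 273, 358 and 363 CPM in WT Fasting livers, which overlapped. The RPKM ratio of Gpt to Gpt2 was 1.91 and 2.38 in WT Refed and 1.37, 1.66 and 1.81 in WT Fasting livers. It was 1.30 to 1.61 in NAMPT LKO Fasting livers, so this ratio did not overlap between refed and fasting libraries either. Glud1, the glutamate dehydrogenase that frees ammonia, was 939 and 960 CPM in WT Refed and 852, 866 and 875 CPM in WT Fasting livers, lower without overlap but not called.

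The promoter of Got1 is shown because Got1 had the largest log2 fold change of the list in WT Fasting against WT Refed livers and its promoter could be matched. Got1 lies on chromosome 19 of GRCm38, from 43499752 to 43524605 on the minus strand, and the 250 bases before its start, from RefSeq on GRCm38.p6, are chr19:43524606-43524855, minus strand. Capitals mark matches to CCAAT, the box bound by NF-Y, and to TGATGNAA, the composite element bound by C/EBP and ATF factors, on either strand.

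Got1 promoter: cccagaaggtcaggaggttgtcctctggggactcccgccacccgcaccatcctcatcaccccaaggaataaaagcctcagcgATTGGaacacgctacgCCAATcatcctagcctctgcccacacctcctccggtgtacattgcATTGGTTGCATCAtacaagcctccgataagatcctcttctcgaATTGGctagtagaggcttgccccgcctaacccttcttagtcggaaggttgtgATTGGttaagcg

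CCAAT matched 5 times, at 168, 152, 107, 64 and 12 bases before the start, and 33.8% of the 32851 promoters in the table hold it in these 250 bases. TGATGNAA matched once, on the opposite strand at 102 bases before the start, directly beside a CCAAT match and sharing no base with it, and 3.45% of promoters hold it. TGACGTCA, the cAMP response element, and TTGCGCAA, the C/EBP palindrome, had 0 matches, against 1.55% and 0.164% of promoters. These letters were chosen after the values were seen, and a match is a description of sequence. Cdo1 lies on chromosome 18 from 46713205 to 46728342 (minus strand) and Sds on chromosome 5 from 120476531 to 120483932 (plus strand).

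**Figure D2:**
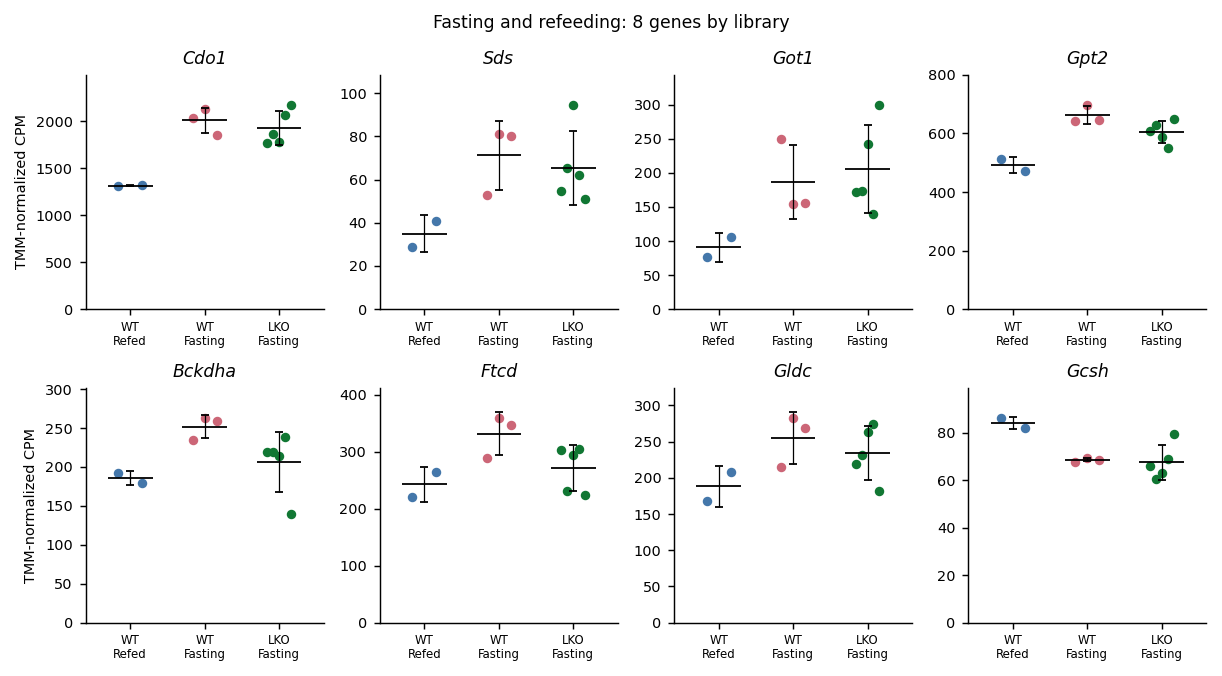
TMM-normalized CPM of 8 genes in each library (points), with the group mean (line) and SD (bar), on linear axes from 0. For Cdo1, Sds, Got1 and Gpt2 every fasting library lies above both refed libraries, while for Gcsh every fasting library lies below them.

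Branched-chain amino acids lose their amino group and are then committed by the branched-chain ketoacid dehydrogenase. Bckdha, the alpha subunit of its decarboxylase, was 192 and 179 CPM in WT Refed and 235, 262 and 259 CPM in WT Fasting livers, and the log2 fold change was 0.44 (95% interval 0.01 to 0.87, edgeR's quasi-likelihood test, adjusted p = 0.213). Bckdhb, the beta subunit, was 43.6 and 45.0 CPM in WT Refed and 49.3, 119 and 69.9 CPM in WT Fasting livers, and the log2 fold change was 0.84 (95% interval 0.12 to 1.56, edgeR's quasi-likelihood test, adjusted p = 0.157). WT Fasting 2 carried much of that difference, and without it the log2 fold change was 0.43. Dbt, the transacylase core, overlapped between the groups, at 78.6 and 83.9 CPM in WT Refed and 68.6 to 78.9 CPM in WT Fasting livers. Bckdk was 17.4 and 16.3 CPM in WT Refed and 13.1 to 16.2 CPM in WT Fasting livers. Bcat2 was 23.3 and 23.9 CPM in WT Refed and 17.2, 22.2 and 19.5 CPM in WT Fasting livers, and the log2 fold change was -0.27 (95% interval -0.62 to 0.09). Bcat2 shares 622 exonic bases with a gene on the opposite strand that holds a mean of 7238 counts against 768 for Bcat2. Without strand, reads from these bases would be ambiguous and uncounted, so the Bcat2 counts are uncertain.

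The phosphatase that opposes Bckdk is not among the 46 genes but belongs to the same switch. Ppm1k, which reactivates the dehydrogenase, was 33.0 and 29.5 CPM in WT Refed, 104, 86.0 and 81.2 CPM in WT Fasting, and 82.5, 91.5, 108, 88.5 and 127 CPM in NAMPT LKO Fasting livers. WT Fasting against WT Refed gave a log2 fold change of 1.53 (95% interval 1.10 to 1.97, edgeR's quasi-likelihood test, adjusted p = 0.00179). Every fasting library was above every refed library by a wide margin, while Bckdk moved within 13.1 and 17.4 CPM across the WT livers. Of 48 other genes of amino acid catabolism, 45 were tested and 2 were called in this comparison, against a background of 7.04% of all genes. Both were higher, namely Ppm1k and Hoga1, an aldolase of hydroxyproline breakdown (log2 fold change 0.50, edgeR's quasi-likelihood test, adjusted p = 0.0255). The median log2 fold change of these 45 genes was 0.03. Ppm1k stayed called without each library in turn, while Hoga1 lost its call without WT Fasting 2, WT Fasting 3, WT Refed 1 or WT Refed 2. Of 9 regulators, 5 were above 0 and 4 below. Cebpb, a transcription factor of the fasting liver, was called (log2 fold change 1.48, edgeR's quasi-likelihood test, adjusted p = 0.0168). Its values were 69.8 and 62.9 CPM in WT Refed and 184, 208 and 162 CPM in WT Fasting livers. Cebpa went the other way without being called (log2 fold change -0.89, 95% interval -1.57 to -0.20, edgeR's quasi-likelihood test, adjusted p = 0.117). It was 821 and 731 CPM in WT Refed and 316, 499 and 441 CPM in WT Fasting livers. Cebpb lost its call without WT Fasting 2, WT Refed 1 or WT Refed 2.

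**Figure D3:**
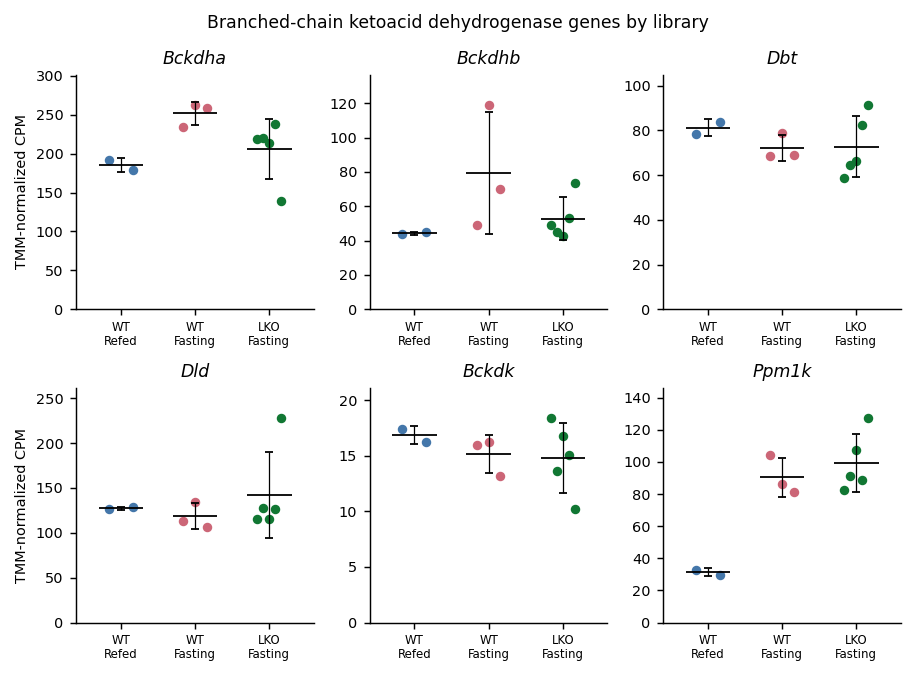
TMM-normalized CPM of the branched-chain ketoacid dehydrogenase genes, its kinase Bckdk and its phosphatase Ppm1k in each library (points), with the group mean (line) and SD (bar), on linear axes from 0. Ppm1k is above 81 CPM in all fasting livers and at or below 33.0 CPM in the refed livers, while the Bckdk groups lie close together.

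The steps after the dehydrogenase had log2 fold changes near 0 between WT Fasting and WT Refed livers. For leucine, Ivd (isovaleryl-CoA dehydrogenase), the methylcrotonyl-CoA carboxylase subunits Mccc1 and Mccc2, and Auh (a hydratase) had log2 fold changes from -0.09 to 0.11. For isoleucine and valine, the acyl-CoA dehydrogenases Acadsb and Acad8 and the valine enzymes Hibch, Hibadh and Aldh6a1 ranged from -0.15 to 0.14. For propionyl-CoA, where these routes meet, the carboxylase subunits Pcca and Pccb and the epimerase Mcee ranged from -0.09 to 0.06. Every one of these 12 genes had an unadjusted p above 0.05 in edgeR's quasi-likelihood test. Aldh6a1, which releases propionyl-CoA from valine, was 383 and 370 CPM in WT Refed and 389, 399 and 352 CPM in WT Fasting livers, and its 95% interval for the log2 fold change was -0.24 to 0.27. Pccb overlapped likewise, at 195 and 177 CPM in WT Refed and 201, 183 and 193 CPM in WT Fasting livers.

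Histidine is degraded in 4 enzyme steps, and all 4 genes had log2 fold changes above 0. Ftcd, which hands the formimino group to folate at the last step, was 221 and 264 CPM in WT Refed and 289, 358 and 347 CPM in WT Fasting livers, and the log2 fold change was 0.45 (95% interval 0.06 to 0.85, edgeR's quasi-likelihood test, adjusted p = 0.167). Hal, the lyase that opens the pathway, was 258 and 428 CPM in the WT Refed livers, which spread across the fasting values of 330, 473 and 420 CPM (log2 fold change 0.25, 95% interval -0.37 to 0.86). Without WT Refed 1 the sign of the Hal value turned, to -0.08. Uroc1 (urocanase) overlapped between the groups, as did Amdhd1 (imidazolonepropionase), whose log2 fold change was 0.22, or 0.02 without WT Refed 1.

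None of the tyrosine, proline and lysine enzymes reached an unadjusted p of 0.05 between WT Fasting and WT Refed livers in edgeR's quasi-likelihood test. The tyrosine genes Hpd, Hgd (homogentisate dioxygenase) and Fah (fumarylacetoacetate hydrolase) had log2 fold changes from 0.15 to 0.21, of which Hpd had the highest, at 0.07 without WT Fasting 2. Fah was 420 and 428 CPM in WT Refed and 460, 490 and 507 CPM in WT Fasting livers, a small step without overlap that was not called. Prodh (proline dehydrogenase) and Prodh2 (hydroxyproline dehydrogenase) both had a log2 fold change of 0.21, or 0.10 and 0.12 without WT Refed 1, and their RPKM ratio was 0.658 ± 0.0209 (SD, n = 2) in WT Refed and 0.663 ± 0.0718 (SD, n = 3) in WT Fasting livers. Aldh4a1, which oxidises the product of either route, had -0.20 (95% interval -0.62 to 0.22), or -0.32 without WT Fasting 2. Oat spread widely within the WT Fasting group, at 1295, 862 and 804 CPM, around refed values of 942 and 872 CPM. Along the lysine route, Aass (the enzyme that joins lysine to ketoglutarate) had a log2 fold change of 0.31 (95% interval -0.15 to 0.76) and Dhtkd1 (an oxoadipate dehydrogenase subunit) 0.35 (95% interval -0.07 to 0.77). Without WT Refed 1 the Aass value was 0.09 and the Dhtkd1 value 0.21. Aldh7a1 and Gcdh, the other lysine genes, stayed within 414 to 495 and 406 to 446 CPM over the 5 WT livers.

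**Figure D4:**
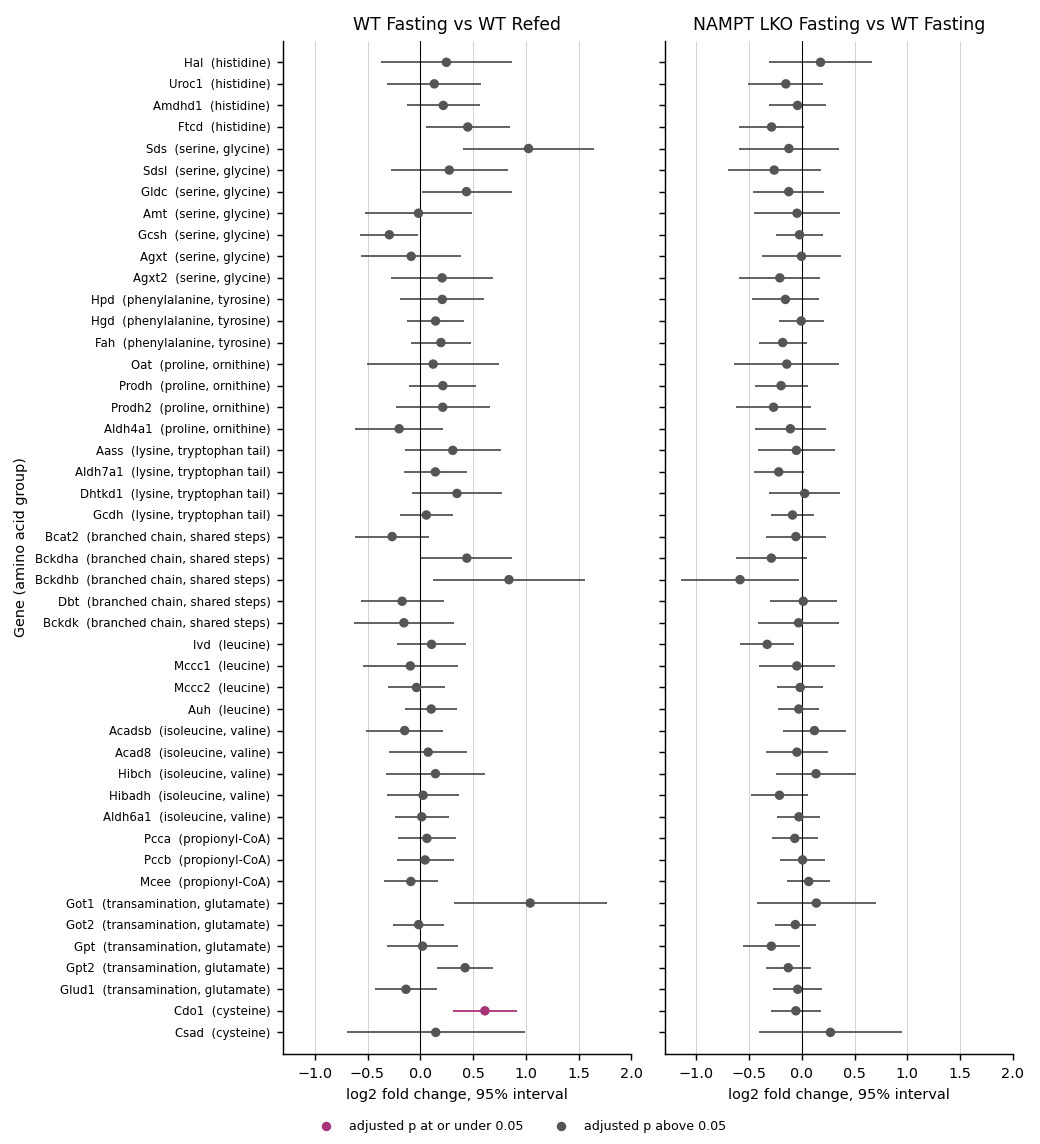
Log2 fold changes of the 46 genes with 95% intervals from edgeR's quasi-likelihood fit, WT Fasting vs WT Refed on the left and NAMPT LKO Fasting vs WT Fasting on the right, coloured where the adjusted p did not exceed 0.05. Cdo1 on the left is the single coloured gene, and most points on the right lie slightly below 0 with intervals that cross it.

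The comparison of NAMPT LKO Fasting with WT Fasting livers asked whether loss of hepatocyte Nampt altered these enzymes in the fasted state. None of the 46 genes was called by edgeR's quasi-likelihood test, and for all 46 the NAMPT LKO and WT Fasting libraries overlapped. Over all genes 1 gene, Nampt, was called, a background of 0.00744%. Genes whose groups did not overlap made up 1.87% (higher) and 2.12% (lower) of all genes tested, and 0 of 46 here. At an unadjusted p at or under 0.05, 3 of 46 genes passed, or 6.52%, against a background of 6.03%, and these were Ivd, Gpt and Bckdhb, all with values below WT. The log2 fold change was below 0 for 37 of the 46 genes, or 80.4%, against 49.9% of all genes, and the list's median was -0.06 against 0.00 over all genes. WT Fasting 2 had the highest values of the list, with a median log2 deviation of 0.15 from the mean of all libraries, and without it the median log2 fold change was -0.03 and 16 rather than 9 genes were above 0.

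The 3 genes at an unadjusted p at or under 0.05 had modest differences. Ivd was 123, 158 and 140 CPM in WT Fasting and 112, 113, 109, 129 and 95.1 CPM in NAMPT LKO Fasting livers, and the log2 fold change was -0.33 (95% interval -0.59 to -0.07, edgeR's quasi-likelihood test, adjusted p = 0.798). Gpt was 247, 254, 278, 274 and 303 CPM in NAMPT LKO Fasting livers, and WT Fasting 1 at 273 CPM lay among them (log2 fold change -0.29, 95% interval -0.56 to -0.02, edgeR's quasi-likelihood test, adjusted p = 0.827). After removal of the GC trend of every library, the log2 fold change of Gpt was -0.15. Bckdhb was 49.3, 45.2, 42.7, 53.3 and 73.7 CPM in NAMPT LKO Fasting livers, and the log2 fold change was -0.59 (95% interval -1.14 to -0.03, edgeR's quasi-likelihood test, adjusted p = 0.827). Without WT Fasting 2, whose Bckdhb value was 119 CPM, that log2 fold change was -0.17. The next lowest p-values belonged to Aldh7a1 (log2 fold change -0.22), Ftcd (-0.29), Bckdha (-0.29), Fah (-0.18) and Prodh (-0.20), each with an interval that included 0. Without NAMPT LKO Fasting 5 the Bckdha value was -0.18, and with the GC trend removed the Prodh value was -0.12.

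The gene called on fasting in WT livers did not differ detectably with genotype. Cdo1 had a log2 fold change of -0.06 in NAMPT LKO Fasting against WT Fasting livers, with a 95% interval of -0.29 to 0.18 (edgeR's quasi-likelihood test, adjusted p = 0.929). Sds and Got1 overlapped between these groups, with 95% intervals of -0.60 to 0.35 and -0.43 to 0.70 for the log2 fold change. With 3 and 5 libraries, differences of any size within these intervals remain compatible with the values.

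By amino acid, all 7 serine and glycine genes, all 4 proline and ornithine genes, all 4 leucine genes and all 3 tyrosine genes had log2 fold changes below 0 in NAMPT LKO Fasting livers. The medians of these groups were -0.12, -0.17, -0.04 and -0.16. The histidine, lysine, branched-chain and transamination groups held 1 gene above 0 each, with medians of -0.10, -0.07, -0.06 and -0.06. The isoleucine and valine genes had a median of -0.03 with 2 of 5 above 0, and the propionyl-CoA genes 0.01 with 2 of 3 above 0. The cysteine pair had the highest median, 0.11, with Csad at 0.27 and Cdo1 at -0.06. No gene of any of these groups was called. Among the 45 other genes of amino acid catabolism, 29 were below 0 with a median of -0.06, and 0 were called by edgeR's quasi-likelihood test, while 3 passed at an unadjusted p at or under 0.05.

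Markers of other cells were also compared between the same libraries, and none was called. All 5 bile duct markers (Krt19, Krt7, Epcam, Sox9 and Spp1) had log2 fold changes above 0 in NAMPT LKO Fasting livers, with a summed CPM of 34.6 to 51.0 against 15.2 to 21.2 in WT Fasting livers, and 0 were at 0. All 6 stellate cell markers were also above 0, with overlapping sums of 204 to 292 against 180 to 231 CPM. At an unadjusted p at or under 0.05 by edgeR's quasi-likelihood test, 4 bile duct and 2 stellate markers passed. The 1 pancreas marker tested passed too, with a log2 fold change of -0.59. All 7 Kupffer cell markers had log2 fold changes below 0, the sign of 37 of the 46 enzymes, with a median of -0.28, overlapping sums of 162 to 348 against 216 to 447 CPM, and 0 at an unadjusted p at or under 0.05. Their part in the values of the enzymes was not tested. None of the 5 periportal and 6 pericentral hepatocyte genes tested was called in any of the 3 comparisons, with 1 pericentral gene at an unadjusted p at or under 0.05 in NAMPT LKO Fasting against WT Refed livers.

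NAMPT LKO Fasting livers were also compared with WT Refed livers, which differ in both genotype and feeding and share libraries with the comparisons above. Here 3 of the 46 genes were called, or 6.52%, against a background of 11.2% (1510 of 13444), and all 3 were higher in NAMPT LKO Fasting livers. At an unadjusted p at or under 0.05, 6 of 46 genes passed, or 13.0%, against a background of 26.1%. The log2 fold change was 0.56 for Cdo1 (95% interval 0.28 to 0.84, edgeR's quasi-likelihood test, adjusted p = 0.0190), 1.18 for Got1 (95% interval 0.49 to 1.87, adjusted p = 0.0354) and 0.90 for Sds (95% interval 0.33 to 1.48, adjusted p = 0.0494). All 5 NAMPT LKO libraries lay above both refed libraries for each of these genes. The same held for 6 of the 46 genes (13.0%), and 5 genes (10.9%) lay below both refed libraries. The share of all genes tested whose groups did not overlap was not counted for this comparison. Markers of other cells were called here too. Bile duct Spp1 (log2 fold change 1.55) and Epcam (1.67), stellate Col1a1 (2.47) and endothelial Kdr (0.37) were higher in NAMPT LKO Fasting livers. The 1 pancreas marker tested was called lower (-0.66). All 5 bile duct, all 6 endothelial, 5 of 6 stellate and 6 of 7 Kupffer cell markers were above 0, with bile duct sums of 34.6 to 51.0 against 20.7 to 23.1 CPM, and their part in the values of the enzymes was not tested. The 3 calls were lost without WT Refed 1 and without WT Refed 2, while only Cdo1 remained called without NAMPT LKO Fasting 2 and without NAMPT LKO Fasting 3. Sds also lost its call without NAMPT LKO Fasting 1, NAMPT LKO Fasting 4, WT Fasting 2 or WT Fasting 3, and over all libraries left out in turn its adjusted p ran from 0.0227 to 0.370. Sds passed in 7 of 19 alternative fits, failing also with RLE factors (adjusted p = 0.0501), filterByExpr (0.0543), library size alone (0.0956) and only the 2 groups compared (0.0616). Of the 45 other genes of amino acid catabolism, 5 were called, beside the same background of 11.2%. The following were chosen for mention after their values were seen. Ppm1k (log2 fold change 1.67), Hykk (0.94), a kinase of hydroxylysine breakdown, and Tdo2 (0.66), the dioxygenase that opens tryptophan breakdown, were higher, and the sulfurtransferases Mpst (-0.77) and Tst (-0.81) were lower. Of the 9 regulators, 5 were above 0 and 4 below. Among them Ppargc1a (1.76), a coactivator of gluconeogenic genes, and Cebpb (1.01) were called. Of these named genes, Ppm1k alone stayed called without WT Refed 1 and without WT Refed 2.

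NAMPT LKO Fasting library 5 bears on every value of that group. It held the highest NAMPT LKO value for 19 of the 46 genes and the lowest for 17. Its difference from the mean of libraries 1 to 4, in log2 CPM, ran from -1.42 for Csad to 0.77 for Oat, with a Spearman correlation of -0.52 with exonic GC content across the 46 genes and -0.57 across 13369 genes. Genes of 1 library share its depth and base composition, so this is a description without a test. With library 5 left out of the fit, 6 of the 46 genes were called between WT Fasting and WT Refed livers (Cdo1, Bckdha, Gpt2, Sds and Got1 higher, Gcsh lower), where 16.7% of all genes tested were called. Without it, edgeR's quasi-likelihood test called 0 of 46 for NAMPT LKO Fasting against WT Fasting livers.

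**Figure D5:**
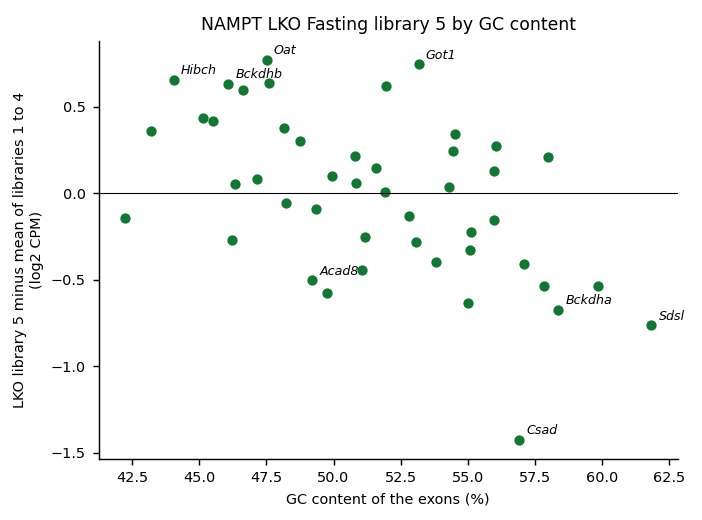
Log2 CPM of NAMPT LKO Fasting library 5 minus the mean of NAMPT LKO Fasting libraries 1 to 4 for each of the 46 genes (vertical axis) against the GC content of its exons in percent (horizontal axis). Csad lies lowest at -1.42 and Oat highest at 0.77, and points at low GC content lie mostly above 0.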

How the data were processed

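Poly-A selected liver RNA was sequenced as single reads, 1 library per sample. Per the labels, the submitters' processing notes name bcl2fastq, STAR 2.5.1a and Subread featureCounts 1.4.6-p5 on GRCm38, and the methods of the study give other versions of STAR and featureCounts. The authors deposited read counts per Ensembl gene, the number of uniquely aligned unambiguous reads. The authors also deposited CPM (counts over the library's total) and RPKM (the same divided by exonic length). Both were recomputed from the counts and differed only by rounding. Whether counting used strand is not given in the sources used here. Fasting lasted 24 h per the labels, or 22 h before 2 h of refeeding, whereas the study's text describes a shorter fast and random feeding, so groups follow the labels. The figure legend of the study lists more WT Fasting mice than the 3 analysed here.

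The filter kept 13444 genes that exceeded 1 CPM in 1 or more libraries, rRNA genes aside. After TMM normalization the quasi-likelihood test of edgeR 4.0.16 (glmQLFit and glmQLFTest, R 4.3.3) was run on the counts, with a mean for each group over 10 libraries fitted together and Benjamini-Hochberg adjustment over all genes tested. The labels number the fasting libraries only, so WT Refed libraries were numbered in accession order. The study's legend counts mice, the labels do not tie libraries to animals, and libraries of a group differed by more than counting noise (lowest chi-square per gene 31.2). The p-values measure the spread between these libraries, and 2 WT Refed libraries limit the precision of every comparison with that group. The 95% intervals come from the standard error and the t distribution of the fit. The script was tested on simulated data. Alternatives were edgeR's exact test, voomWithQualityWeights of limma 3.58.1, DESeq2 1.42.0, library size alone, RLE factors, other filters, fits of 2 groups, removal of each library's GC trend (loess span 0.5), a block on replicate number and omission of each library.

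The 46 genes and all lists were chosen with earlier results of these data known. By the rule for named genes, log2 fold changes were taken for all 46 genes in WT Fasting vs WT Refed (given singly for 20 genes of size 0.2 or more or with an unadjusted p at or under 0.05, and by range or in the plot for the rest). In NAMPT LKO Fasting vs WT Fasting, they were taken for called genes of the former and the 8 lowest p-values, and in NAMPT LKO Fasting vs WT Refed for called genes. Of the 46 genes, 40 matched the RefSeq promoter table of GRCm38.p6, including 1 of the 3 called in any comparison. Protein sequences were not used here.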

Additional observations from a re-analysis of the deposited data

Results flagged for a closer look

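Among the 5 NAMPT LKO Fasting livers, a library whose gap to its nearest neighbour took more than 0.71 of the group's range was marked for each of the 46 genes. Such gaps occur by chance in about 1 in 20 groups, or 2.3 of 46 genes, and 4 were found. All 4 were in NAMPT LKO Fasting library 5. Bckdha was lowest there at 139 CPM against 214 to 238 CPM in the other libraries (gap 0.752 of the range), and Acad8 was lowest at 30.3 against 41.6 to 43.7 CPM (0.845). Hibch was highest there at 114 CPM against 68.8 to 77.3 CPM (0.813), and Pccb was highest at 220 against 182 to 191 CPM (0.760). The same library had 21.1% of its counts on mitochondrial genes and departed from the others with GC content, and the part of either in these values was not tested.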

How the results depend on the processing

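Between WT Fasting and WT Refed livers, the 1 member called (all genes 7.04%) became 3 with edgeR's exact test (all genes 8.87%), 3 with the GC trend removed (11.0%), 3 with no filter beyond 1 count (3.6%), 4 with DESeq2 (12.2%), 5 in a fit of only the 2 groups compared (12.6%), 9 with voomWithQualityWeights (24.8%), 9 at an unadjusted p (22.3%) and 0 where a log2 fold change of at least 1 was also required. With a fasting library left out, the lowest count was 0 without WT Fasting 2 (all genes 3.47%). The highest was 6 without NAMPT LKO Fasting 5 (16.7%). The share of all genes under the added fold change limit was not counted. Against WT Refed livers, the 3 members called in NAMPT LKO Fasting livers (all genes 11.2%) compare with 6 at an unadjusted p (26.1%), 10 with voomWithQualityWeights (31.8%) and 1 with the added fold change limit. With a fasting library left out the count was 1 to 4. All genes called made up 7.37% without NAMPT LKO Fasting 2 (1 member) and 21.2% without NAMPT LKO Fasting 5 (4 members). For NAMPT LKO Fasting against WT Fasting livers the count was 0 in all alternative fits (at most 0.179% of all genes) and 3 at an unadjusted p (6.03%). The median log2 fold change of the members moved beyond the spread of the library medians in a single alternative, to -0.10 for NAMPT LKO Fasting against WT Refed with library size alone, which also moved the median of all genes from 0.03 to -0.06, and Hal in WT Fasting against WT Refed ran from -0.084 without WT Refed 1 to 0.652 without WT Refed 2. The cause of the other shifts was not tested, except that leaving out a library removes a sample. The labels give no pairing of libraries by replicate number. The deviations of same-numbered libraries had correlations of 0.0764, 0.162 and 0.0968 against a mean of -0.0559 for other pairs, not all above 0.1, and 6 of 6 libraries correlated best with their own number, a hint from the data and not the design. With the replicate block the members' median for NAMPT LKO Fasting against WT Fasting was -0.12, and -0.12 for the same libraries without it, with 0 members called in either. In both of these fits of 6 libraries 0 of 13231 genes were called, Nampt included (adjusted p = 0.106 and 0.269), so their count of 0 says nothing of the members.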

Other observations

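Some genes of the same pathways outside the 46 showed spreads within the NAMPT LKO Fasting group, and were chosen for mention after their values were seen. Tat, the tyrosine aminotransferase whose product Hpd converts, was 1046 and 1250 CPM in WT Refed and 2457, 1937 and 2330 CPM in WT Fasting livers. In NAMPT LKO Fasting livers Tat was 1320, 2043, 1936, 1021 and 2462 CPM, so that library 4 lay near the lower refed library while library 5 lay near the highest WT Fasting library. Klf15, a transcription factor of amino acid breakdown, was 193, 261, 284, 153 and 207 CPM in the same NAMPT LKO Fasting livers, with its lowest value again in library 4, against 262, 252 and 297 CPM in WT Fasting and 177 and 173 CPM in WT Refed livers. These values are descriptions without a test.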
